A study of Xenopus laevis with 20 samples.

Results

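The cell adhesion and extracellular matrix genes of the early neurula were taken as every probe set whose platform gene symbol begins with the name of a cadherin, protocadherin, claudin, occludin, tight junction protein (tjp), connexin (gja, gjb), integrin (itga, itgb), laminin, collagen, fibronectin 1, fibrillin or matrix metalloproteinase, or of epcam. The choice used names and no measured value. It took 115 of the 15491 gene probe sets of the array, and no laminin. These carry 81 of 7531 gene symbols, counting homeologous copies (.L and .S) apart and leaving out probe sets with several symbols. Whole Xenopus laevis embryos were measured at stage 13 on 20 single-colour Affymetrix arrays. Of these, 5 were labelled as injected with mRNA of Xrx1 (the eye field transcription factor now called rax; 50 pg by the sample labels), 5 as injected with a morpholino against it (given as 1 pM), and 10 as uninjected siblings. The injected embryos of both kinds were also given 400 pg of tracer mRNA (GFP), each dorsal blastomere being injected at the 4-cell stage, and the uninjected controls received none. Other fields of the labels give other amounts and units for all 3 agents. An array held RNA of 3 embryos by the sample labels, whereas the design text describes extraction from single embryos. No label says that the embryos came from separate parents, and p-values cover only the variation from array to array, which may be technical. Where several probe sets of a gene were kept, they are lettered A, B and so on, as in the figures.

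Cells of the neural plate, epidermis and mesoderm hold together and move past each other through these proteins. Classical cadherins bind the same cadherin on a neighbouring cell, with cdh1 (E-cadherin) typical of epidermis, cdh2 (N-cadherin) of the neural plate and cdh3 (C-cadherin in Xenopus) supplied by the egg and present widely. Claudins and occludin seal epithelia at tight junctions, connexins form channels between cells, and integrins grip matrix proteins such as fibronectin. Fibrillins and collagens build the matrix between tissues, including the sheath around the notochord, and matrix metalloproteinases cut it.

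The mRNA arrays and controls 1 to 5 are called the first set below, and the arrays labelled morpholino and controls 6 to 10 the second set, because the controls are numbered through both. The labels do not name such sets. A control probe set of the array (AFFX-Xl-M62653-1_s_at), called the tracer here, was at log2 13.12 to 14.51 in the 5 mRNA arrays and at 3.04 to 3.32 in controls 1 to 5. For 8 of 10 arrays of the second set it contradicted the label, being high in morpholino 5 and controls 6 to 9 but low in morpholino 1 to 4 and control 10. The direction of every difference that involves the second set is therefore unsettled, and its arrays are called by their labels. Array medians over the kept probe sets were 7.35 to 7.40 in the second set and 7.24 to 7.33 in the first set.

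Tests used the probe sets that exceeded log2 4 in 5 arrays or more. This kept 53 of the 115 members (41 gene symbols, not counting the 2 probe sets with several symbols) and left out 62, of which 57 were never above 4. The fn1, fbn3 and epcam probe sets were all kept, as were 13 of 17 tight junction, 6 of 10 cadherin and 4 of 6 protocadherin probe sets. Of the integrins 11 of 33 were kept, of the collagens 6 of 22, of the connexins 2 of 5 and of the metalloproteinases 3 of 14. The probe sets for col1a1.S, col1a2.L, col3a1.S, col4a1.L, col4a2.L, col5a1.L, col6a1.L and col6a2.L were all among those left out. By symbol, itgb1bp2.L encodes a cytosolic protein that binds integrin and not an integrin, and cldnd1.L and itgbl1.L encode proteins that share a domain with claudins or integrins. Since low probe sets stay out of the tests, counts below speak of kept members only.

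The kept members had a median SD of 0.432 over the 20 arrays (log2, range 0.154 to 1.22). The metalloproteinase mmp3.L had the largest, and its values fell differently in the 2 sets. It was at 7.02 to 8.29 in the 5 arrays labelled morpholino and at 7.12 to 8.09 in controls 6 to 10, while it ran from 3.39 to 8.60 in the mRNA arrays and from 5.38 to 8.65 in controls 1 to 5. The first set thus covered the whole range of mmp3.L. Its low end was 1 array, mRNA 3, and the next lowest value was 5.38 in control 2. The claudin cldn1.S ran over 4.20 to 8.18 and overlapped broadly in all 4 groups. Its mRNA arrays were at 6.0, 8.07, 6.68, 6.57 and 8.18, against 4.77, 6.75, 7.71, 5.37 and 7.26 in controls 1 to 5. In the other classes the member with the largest SD was cdh2.S among cadherins (SD 1.21), col9a2.L among collagens (0.873), itga5.L among integrins (0.745), fbn3.L (0.640), gja7.S among connexins (0.600), pcdh8.2.L among protocadherins (0.548) and epcam.L (0.253).

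**Figure D1:**
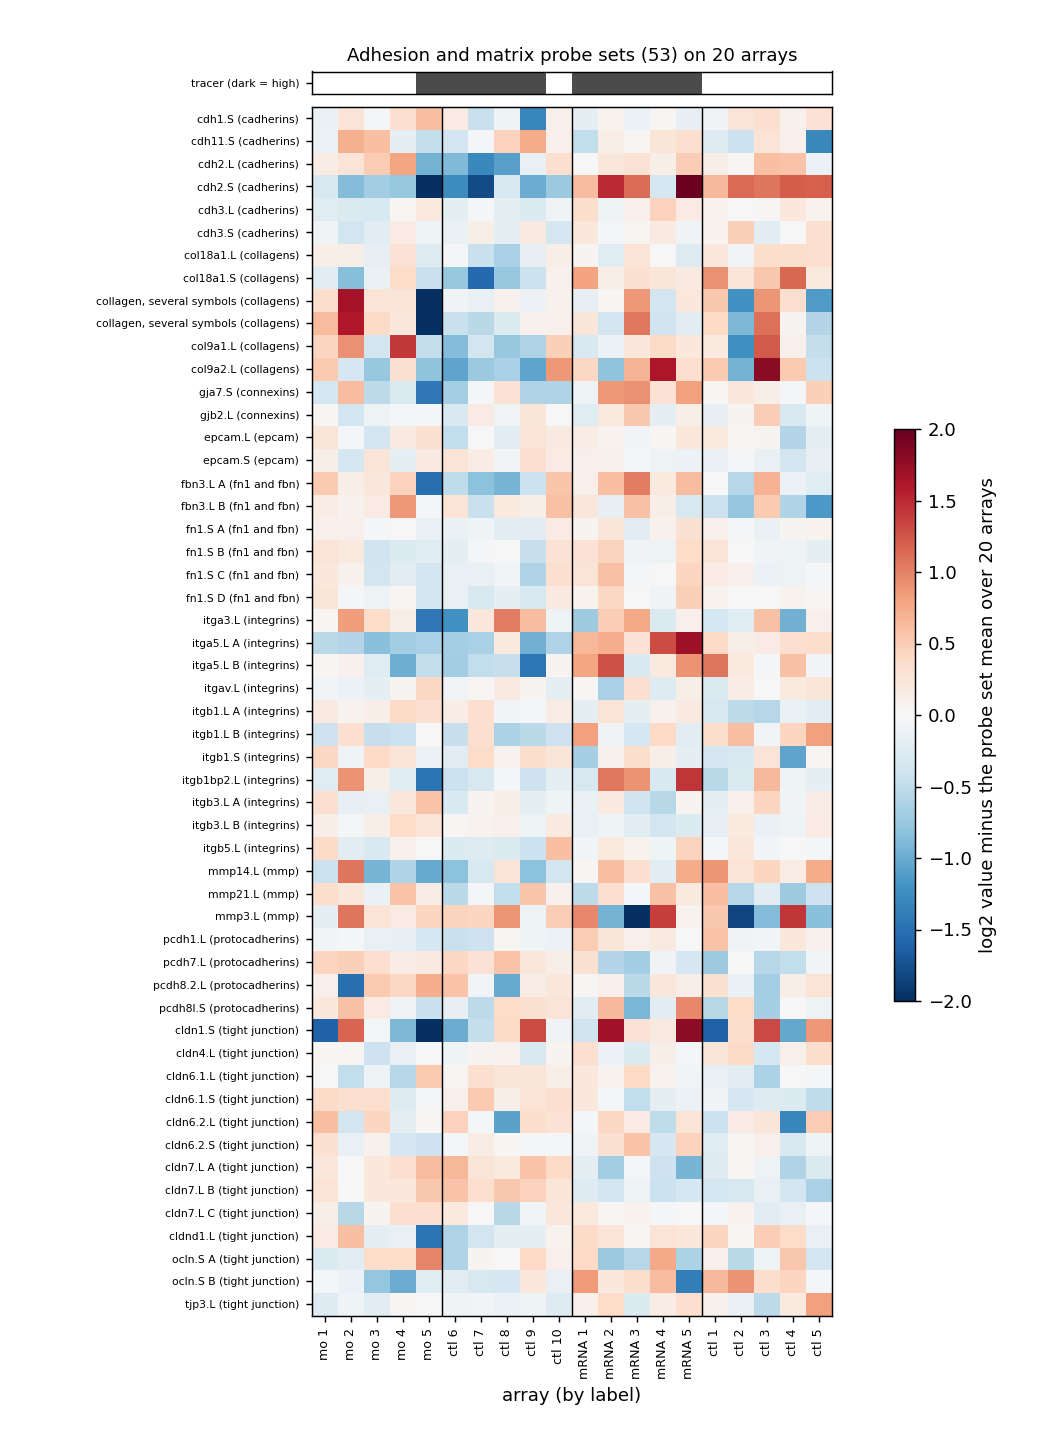
Log2 values of the 53 kept probe sets (rows, with role class) on the 20 arrays (columns, by label: mo for labelled morpholino, ctl for uninjected control), each minus the mean of its probe set over all arrays. The top strip is dark where the tracer was above log2 8; cdh2.S is below its mean in every array of the second set and above it in the first set apart from mRNA 4, while cdh2.L is low in the dark columns of the second set.

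Between Xrx1 mRNA embryos and controls 1 to 5, no adhesion or matrix gene passed the test. The smallest p-values belonged to the fibronectin receptor subunits itgb1.L and itga5.L, the claudin cldn6.1.L and the fibrillin fbn3.L, whose mRNA means were 1.28- to 1.58-fold those of the controls. By limma with Benjamini-Hochberg adjustment over 10435 probe sets, 0 of 53 members were called (background 0%), and 4 members had an unadjusted p under 0.05 (background 7.78%). The median log2 difference was 0.109 over the members, with 37 above 0 and 16 below, against 0.0311 over all kept probe sets. Of all kept probe sets, 56.2% were above 0.

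The alpha subunit itga5.L, which pairs with beta 1 to bind fibronectin, was at log2 4.74, 4.80, 4.37, 5.39 and 5.77 in the mRNA arrays (probe set A), against 4.47, 4.22, 4.25, 4.40 and 4.44 in controls 1 to 5. All 5 mRNA arrays were above the control mean, but mRNA 3 lay within the control range. The log2 difference was 0.66 ± 0.24 (SE of the fit, n = 5 each, adjusted p = 0.635). Its partner itgb1.L (probe set A) averaged 10.66 ± 0.20 in mRNA arrays and 10.27 ± 0.19 in controls 1 to 5 (SD), a difference of 0.39 ± 0.14 (adjusted p = 0.635). A second probe set of each gene did not show this: itgb1.L probe set B differed by -0.31 ± 0.24, and itga5.L probe set B was at 5.31 to 6.88 in mRNA arrays and 5.55 to 6.68 in controls.

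The microfibril protein fbn3.L was measured by 2 probe sets. Probe set A was at 10.11, 10.61, 11.02, 10.20 and 10.62 in the mRNA arrays, against 10.0, 9.43, 10.69, 9.89 and 9.76 in controls 1 to 5, while probe set B was at 5.85, 5.46, 6.20, 5.75 and 5.30 against 5.19, 4.85, 6.14, 5.01 and 4.47. Every mRNA array was above the control of its own number on both probe sets, although the groups overlapped on both. The differences were 0.55 ± 0.24 and 0.58 ± 0.29 (adjusted p = 0.635 and 0.661). With the replicate number as a block, adjusted p was 0.304 and 0.265. Since reading pairs this way still called 0 of 53 members (background 0.0671%, limma with the block), no member call depended on it.

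The claudin cldn6.1.L averaged 9.88 ± 0.18 in mRNA arrays and 9.53 ± 0.25 in controls 1 to 5 (SD, n = 5 each), a difference of 0.35 ± 0.15 (adjusted p = 0.635). The epidermal cadherin cdh1.S was at 7.80, 8.05, 7.86, 8.01 and 7.81 in the mRNA arrays, against 7.91, 8.23, 8.30, 8.06 and 8.26 in controls 1 to 5. It was lower in each mRNA array than in the control of its number, with a difference of -0.25 ± 0.12 (adjusted p = 0.653). All 6 kept fn1 and fbn3 probe sets, which stand for 2 genes, had differences above 0 (0.08 to 0.58). Both epcam (0.16 and 0.18) and all 4 protocadherin probe sets (0.02 to 0.25) did as well, and none was called. Over all kept probe sets 56.2% were above 0. Of the other classes, 2 of 6 cadherin and 1 of 3 metalloproteinase probe sets were above 0. For collagens it was 4 of 6, for integrins 7 of 11, for tight junction genes 9 of 13 and for connexins 2 of 2. The 4 fn1.S probe sets, which measure the fibronectin that mesoderm migrates on, differed by 0.08 to 0.26. The difference between 3′ and 5′ control probe sets, a measure of RNA quality, was 1.80 to 3.92 (log2) in mRNA arrays and 0.32 to 3.00 in controls 1 to 5. The paraxial mesoderm and muscle markers (4 of 6 kept) averaged 9.51 to 10.44 in mRNA arrays and 8.83 to 9.73 in controls 1 to 5, and the cement gland markers (7 of 7 kept) 7.47 to 9.81 in mRNA arrays and 9.38 to 10.97 in controls 1 to 5. The part of RNA quality and of these markers in the values was not tested. In bulk RNA of whole embryos, fewer cells of a type and less RNA per cell cannot be told apart.

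**Figure D2:**
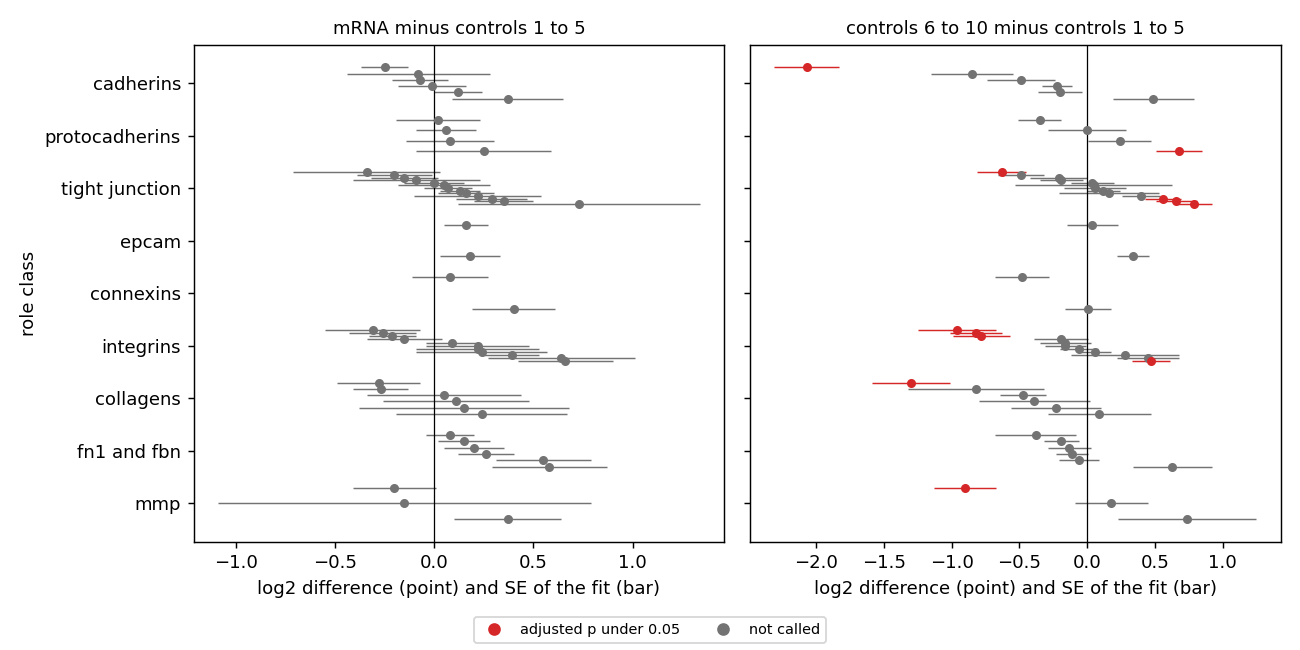
Log2 difference (points) and SE of the fit (bars) for the 53 kept probe sets by role class, in mRNA minus controls 1 to 5 (left) and in controls 6 to 10 minus controls 1 to 5 (right), with 5 arrays a group. No point is called on the left and 12 are called on the right (red), and the axes have different ranges.

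In the second set, arrays labelled morpholino and controls 6 to 10 differed in no called member either, yet 8 members separated completely by tracer. Low wherever the tracer was high were the N-cadherin copy cdh2.L, the fibrillin fbn3.L (probe set A), the collagen col9a1.L, the claudin-domain protein cldnd1.L and 2 fn1.S probe sets. So was 1 of the 2 kept collagen probe sets that carry several symbols (both name col2a1.S and col2a1.L). Of the claudin cldn7.L, only probe set B separated, and it was high there. By label, 0 of 53 members were called (limma, background 0%) and 0 had an unadjusted p under 0.05 (background 3.13%). The 8 of 53 that separated by tracer compare with a background of 5.67% of all kept probe sets: 7 were below in tracer-high arrays (background 2.87%) and 1 above (background 2.81%). In the first set 0 of 53 separated (background 1.06%, with 0.652% above and 0.412% below). These counts describe the arrays and are no test.

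N-cadherin cdh2.L was at 6.43, 6.02, 6.22 and 7.16 in controls 6 to 9 and at 6.36 in morpholino 5, which all carried the tracer. It was at 7.45, 7.56, 7.81 and 8.09 in morpholino 1 to 4 and at 7.65 in control 10, which did not. The tracer-high arrays thus ended at 7.16, below the lowest tracer-low array. In the first set the same probe set was at 7.31 to 7.80 in the tracer-high mRNA arrays and at 7.19 to 7.91 in controls 1 to 5, and the groups overlapped.

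Fibrillin fbn3.L (probe set A) was at 8.49 in morpholino 5 and 9.49, 9.18, 9.08 and 9.57 in controls 6 to 9, against 10.55 in control 10 and 10.52, 10.14, 10.23 and 10.46 in morpholino 1 to 4. This was the widest gap among the 8, and it ran opposite to the first set, where the tracer-high arrays averaged higher. The second fbn3.L probe set did not separate: it was at 5.18 to 5.89 in tracer-high arrays and 5.7 to 6.48 in tracer-low arrays.

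Collagen col9a1.L, of a type laid down in cartilage and around the notochord, was at 5.12 to 5.63 in the 5 tracer-high arrays and at 5.63 to 7.41 in the tracer-low ones, so its nearest arrays touch at the printed precision. One collagen probe set with several symbols was at 4.12 to 6.32 in tracer-high and 6.35 to 7.85 in tracer-low arrays, while the other, at 3.82 to 6.26 and 6.25 to 7.83, overlapped. For cldnd1.L the ranges were 6.42 to 7.71 and 7.71 to 8.48. The steps for fibronectin were small: fn1.S was at 12.83 to 12.97 in tracer-high and 13.02 to 13.22 in tracer-low arrays (probe set A), and at 10.77 to 10.99 and 11.04 to 11.37 on probe set D. The other 2 fn1.S probe sets overlapped. In the other direction, cldn7.L (probe set B), a claudin of epithelia, was at 11.12 to 11.37 in tracer-high arrays and 10.80 to 11.08 in tracer-low arrays. Its other kept probe sets overlapped: probe set A was at 11.88 to 12.35 in tracer-high and 11.68 to 12.06 in tracer-low arrays. Probe set C was at 9.2 to 10.09 in both.

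**Figure D3:**
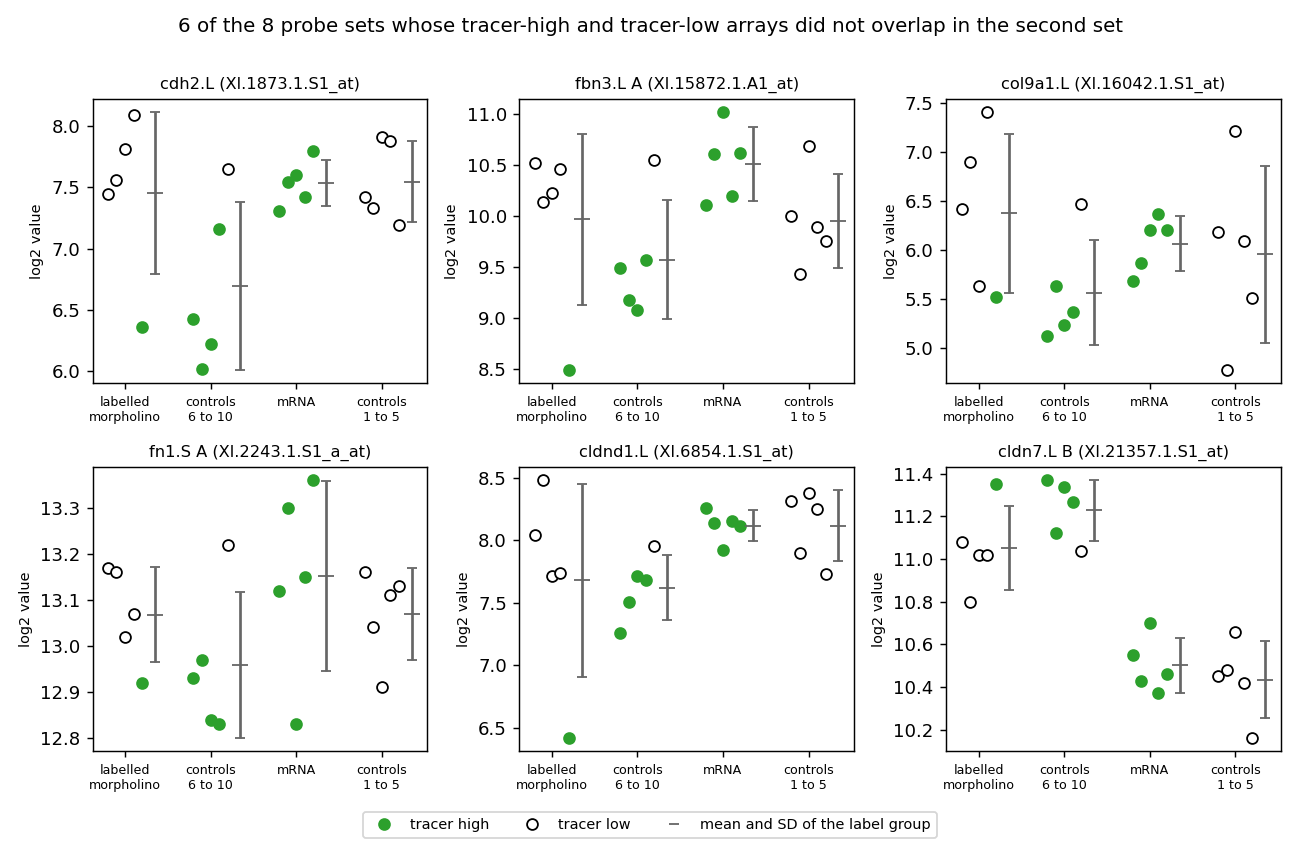
Log2 values per array for 6 of the 8 probe sets that separated by tracer in the second set, by label group, with filled points for tracer-high arrays and grey bars for the mean ± SD of each label group (n = 5). In the 2 left groups of each panel the filled points lie on 1 side of the open ones, whereas the mRNA arrays and controls 1 to 5 overlap in every panel.

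By label, the members with the smallest p in the second set were col9a1.L (6.38 ± 0.81 in arrays labelled morpholino and 5.57 ± 0.54 in controls 6 to 10), cdh2.L (7.45 ± 0.66 and 6.70 ± 0.69) and cdh1.S (8.19 ± 0.29 and 7.67 ± 0.60; SD, n = 5 each). Their log2 differences were 0.81 ± 0.38, 0.76 ± 0.37 and 0.52 ± 0.27 (limma adjusted p = 0.998 for each). Without morpholino 5 and control 10, whose tracer matches the label, 1 of 53 members was called (background 0.355%). This was fbn3.L probe set A, at 10.34 ± 0.18 in morpholino 1 to 4 and 9.33 ± 0.24 in controls 6 to 9 (SD, n = 4 each). The difference was 1.01 ± 0.17 with a limma adjusted p of 0.0499. Probe set B differed by 0.27 ± 0.23 in the same fit (adjusted p = 0.706). In these 8 arrays label and tracer split the same way, and probe set A had already separated by tracer. The call is therefore not separate support. With all 10 arrays the difference of probe set A was 0.39 ± 0.40. In the same 8 arrays cdh2.L differed by 1.27 ± 0.26 (adjusted p = 0.0975), col9a1.L by 1.25 ± 0.34 (0.177), the collagen probe sets with several symbols by 1.01 ± 0.30 (0.211; the one that separated) and 0.70 ± 0.30 (0.414), and cldn6.1.L by -0.50 ± 0.17 (0.272).

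By their mean log2 value, markers of the cement gland and neural crest separated by tracer in the second set as well. All other marker lists with kept probe sets overlapped by this mean. The 7 cement gland probe sets averaged 7.27 to 8.38 in tracer-high arrays and 9.33 to 9.99 in tracer-low arrays, and the 6 kept neural crest probe sets 6.38 to 6.54 and 6.93 to 7.57. By the log2 of summed linear values the cement gland list still separated (11.37 to 12.04 and 13 to 13.49). The neural crest list then overlapped (9.87 to 10.56 and 10.28 to 11.17). Within it sox9.S (7.27 to 7.72 and 8.1 to 8.89), snai2.L (6.42 to 7.08 and 7.28 to 8) and foxd3.S (5.14 to 5.76 and 5.94 to 6.51) separated. The other kept probe sets overlapped, among them snai1.S (9.07 to 10.12 and 9.32 to 10.5). All 6 had a lower median in tracer-high arrays. The neural plate list (13 of 15 kept) was at 8.37 to 8.66 and 8.60 to 8.86, with a log2 of its summed linear values of 12.88 to 13.39 and 13.22 to 13.54. Within it the neural adhesion molecule ncam1.S was at 3.28 to 4.69 in tracer-high arrays and 4.73 to 5.72 in tracer-low arrays. The other kept probe sets of this list overlapped between tracer states and leaned in both directions. For example, sox11.S was at 10.65 to 11.53 in tracer-high and 11.52 to 11.96 in tracer-low arrays, and gmnn.L at 9.25 to 9.61 and 8.84 to 9.44. The axial mesoderm list (6 of 6 kept) was at 7.32 to 7.93 and 7.23 to 7.57, with a log2 sum of 10.53 to 11.18 and 9.94 to 10.45. By this sum, though not by the mean, the list separated by tracer. Only shh.L had a lower median in tracer-high arrays, at 4.48 to 6.11 against 6.93 to 8.03 in tracer-low arrays. Separated in the other direction were tbxt.S (9.5 to 10.24 and 8.21 to 9.16) and not.S (7.52 to 8.27 and 6.49 to 7.22). The rest of the axial list overlapped, with higher medians in tracer-high arrays. The RNA quality measure was 0.39 to 1.44 in tracer-high and 0.92 to 2.44 in tracer-low arrays. The part of these markers and of RNA quality in the values of cdh2.L, fbn3.L and the collagens was not tested.

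The largest difference of a member in the 6 comparisons lay between the controls of the 2 sets, which share a label. N-cadherin cdh2.S, the collagen col18a1.S of basement membranes, both probe sets of itga5.L, the membrane-bound protease mmp14.L, and 1 probe set each of itgb1.L and occludin ocln.S were lower in controls 6 to 10 than in controls 1 to 5. Higher in controls 6 to 10 were 2 probe sets of cldn7.L, cldn6.1.S, the protocadherin pcdh7.L (known in Xenopus ectoderm) and the other probe set of itgb1.L. By limma, 12 of 53 members were called, 22.6% (background 23.1%), with 5 higher (background 14.7%) and 7 lower (background 8.43%). The members' share was thus near that of all probe sets. The median difference was -0.114 over the members and 0.0833 over all kept probe sets. Quantile normalization gave 4 higher and 11 lower, and centring of arrays on their median 4 and 10. The shares over all probe sets under these scalings are not given here, so these counts do not show a lean of the members.

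N-cadherin cdh2.S was at 4.70, 4.17, 5.65, 4.97 and 5.21 in controls 6 to 10, against 6.61, 7.09, 7.03, 7.16 and 7.15 in controls 1 to 5. No control of one set reached the range of the other. The difference was -2.07 ± 0.24, a 4.20-fold lower value (limma adjusted p = 0.000264). Every array labelled morpholino was as low, at 3.55 to 5.63, and the mRNA arrays were at 5.61 to 7.93, so that only mRNA 4 (5.61) lay within the second set's range.

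Claudin cldn7.L (probe set B) was at 11.37, 11.12, 11.34, 11.27 and 11.04 in controls 6 to 10, against 10.45, 10.48, 10.66, 10.42 and 10.16 in controls 1 to 5, a difference of 0.79 ± 0.13 (adjusted p = 0.00193). It was the 1 member of 53 for which all 10 arrays of the second set lay on one side of all 10 of the first (background 5.76%). Probe set A differed by 0.66 ± 0.15 (adjusted p = 0.0109). The third cldn7.L probe set differed by 0.04 ± 0.16 and was not called.

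Collagen col18a1.S averaged 5.92 ± 0.60 in controls 6 to 10 and 7.22 ± 0.41 in controls 1 to 5 (SD, n = 5 each), a difference of -1.30 ± 0.29 (adjusted p = 0.00887). The fibronectin receptor subunit itga5.L differed by -0.82 ± 0.19 on probe set A (adjusted p = 0.0118, from a mean of 3.53 in controls 6 to 10, under the filter's level). On probe set B it differed by -0.96 ± 0.29 (adjusted p = 0.033). Probe set A passed the filter through the first set, since control 8 (4.27) was the only second-set array above 4. Its call is therefore not separate from the filter, while probe set B was above 4 in all 20 arrays. For mmp14.L the difference was -0.90 ± 0.23 (adjusted p = 0.0155), and 1 control of the second set (control 8, at 6.53) overlapped the first set. These 3 genes act at the contact of cells with matrix.

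Among the claudins, cldn6.1.S was at 9.92 ± 0.17 in controls 6 to 10 and 9.36 ± 0.16 in controls 1 to 5, a difference of 0.56 ± 0.13 (adjusted p = 0.0115). Protocadherin pcdh7.L differed by 0.68 ± 0.17 (adjusted p = 0.0144) at levels around the filter, 4.31 against 3.63. It was above 4 in every array of the second set (lowest 4.12) but in few of the first. It thus passed the filter through the set where it was called higher, and the call is not separate from the filter. Occludin ocln.S differed by -0.63 ± 0.18 on probe set B (adjusted p = 0.0282) and by 0.06 ± 0.23 on its other probe set.

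Control 10, the 1 control of the second set without the tracer, was also set alone against controls 1 to 5, with the lone array assumed to vary like the others. This gave 0 called members and 52 of 10435 probe sets in all, a comparison with 1 array that says little of the tracer. In it cdh2.S differed by -1.80 (adjusted p = 0.056), itga5.L probe set A by -0.90 (0.144), cldn7.L probe set B by 0.60 (0.36) and col18a1.S by -0.53 (0.636). The multiciliated cell markers (2 of 3 kept) averaged 5.91 to 6.67 in controls 6 to 10 and 4.52 to 5.40 in controls 1 to 5. The neural plate markers (13 of 15 kept) averaged 8.37 to 8.66 in controls 6 to 10 and 8.77 to 9.05 in controls 1 to 5. The 7 cement gland probe sets averaged 8.06, 8.38, 7.88, 7.92 and 9.57 in controls 6 to 10, against 9.38 to 10.97 in controls 1 to 5. The RNA quality measure was 0.39 to 1.44 in controls 6 to 10 and 0.32 to 3.00 in controls 1 to 5, and the part of these markers and of RNA quality in the calls was not tested. Nothing in the labels names what else differed between the sets, and set and tracer cannot be told apart for most of these controls.

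**Figure D4:**
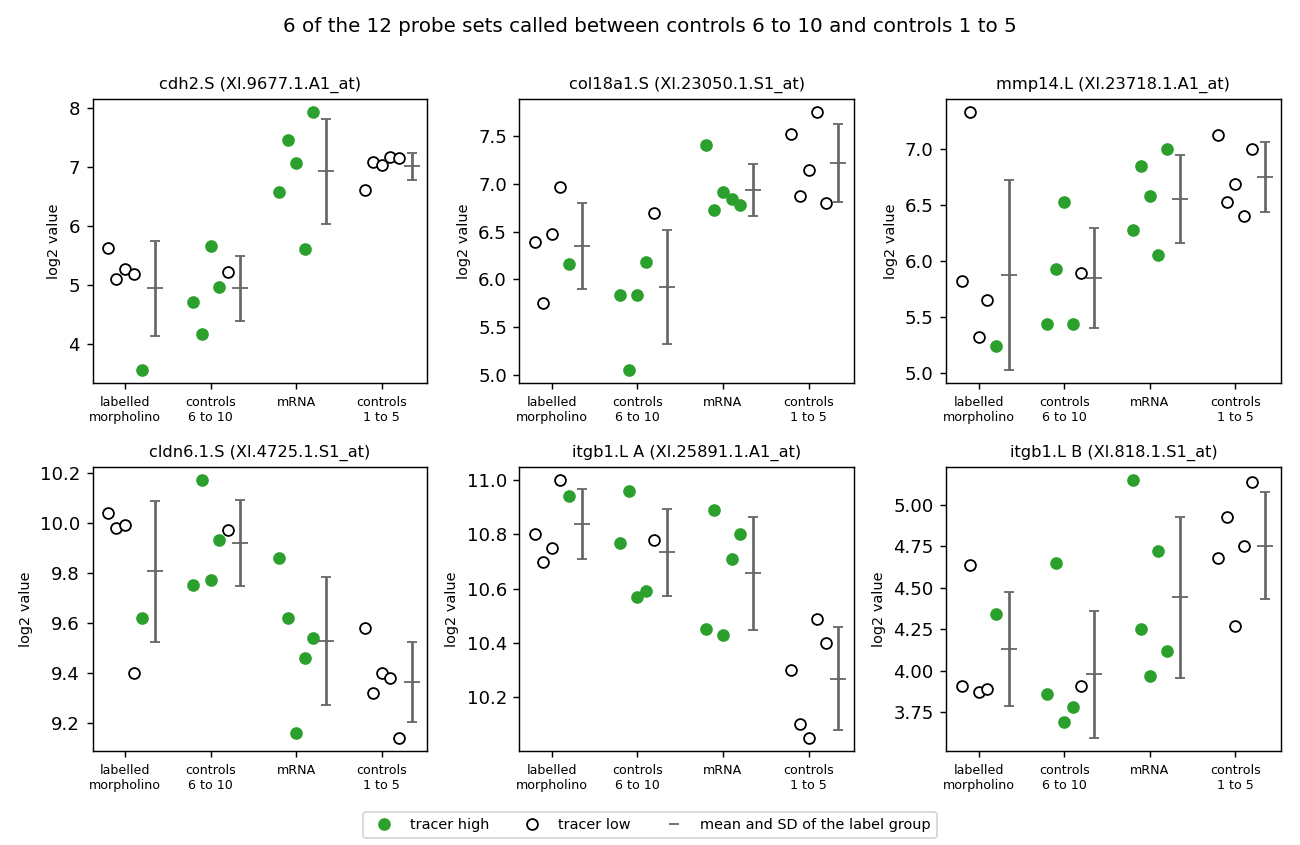
Log2 values per array for 6 of the 12 probe sets called between controls 6 to 10 and controls 1 to 5, by label group, with filled points for tracer-high arrays and grey bars for the mean ± SD of each label group (n = 5). The arrays labelled morpholino (3.55 to 5.63) lie with controls 6 to 10 (4.17 to 5.65) for cdh2.S, and the itgb1.L probe sets differ in opposite directions.

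Against each other, Xrx1 mRNA arrays and arrays labelled morpholino differed in 5 of 53 members (9.43%, background 13.3%; limma over all 20 arrays). Integrin itga5.L, cdh2.S and the connexin gja7.S were higher in mRNA arrays (3 of 53, background 4.82%), and the integrin itgb3.L and cldn7.L were lower (2 of 53, background 8.49%). Quantile normalization gave 5 higher and 0 lower, and centring on the median 3 higher and 1 lower, again without the shares over all probe sets. The comparison sets an injection of the first set against one labelled in the second set, and with set as a block 0 of 53 members were called (background 0%). Leaving out any 1 mRNA array, or morpholino 1, 3, 4 or 5, left 1 to 3 calls, whereas leaving out morpholino 2 gave 7. Over all 20 arrays left out in turn the count was 1 to 7. The shares over all probe sets in these fits are not given here, so these counts say nothing particular of the members.

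Integrin itga5.L (probe set A) averaged 5.01 ± 0.56 in mRNA arrays and 3.42 ± 0.12 in arrays labelled morpholino (SD, n = 5 each), the latter under the filter's level. No array labelled morpholino exceeded 3.54, so this probe set passed the filter through the first set, where it was high. Its call is therefore not separate from the filter. The difference was 1.60 ± 0.29 (adjusted p = 0.0156), and with set as a block it was 0.78 (adjusted p = 0.988). For cdh2.S the mRNA arrays were at 6.57, 7.45, 7.07, 5.61 and 7.93, against 5.63, 5.09, 5.26, 5.19 and 3.55 in the arrays labelled morpholino. That difference of 1.98 ± 0.60 (adjusted p = 0.036) became -0.09 with set as a block (adjusted p = 0.994). Connexin gja7.S differed by 0.96 ± 0.31 (adjusted p = 0.0435; 0.47 with the block), itgb3.L probe set B by -0.39 ± 0.12 (0.0373; -0.33) and cldn7.L probe set A by -0.73 ± 0.22 (0.039; -0.07). Without the block, cldn7.L probe set B differed by -0.55 ± 0.22 (adjusted p = 0.0849, not called), and probe set C averaged 9.81 in both groups. Also not called, but with the sign of the called probe set, were itga5.L probe set B (6.18 and 5.29) and itgb3.L probe set A (5.28 and 5.61). With set as a block, the differences of cdh2.S and of cldn7.L probe set A were thus near 0. The block compares arrays labelled as injected with arrays labelled as controls in the same set. In the second set the tracer contradicted most of these labels. Whether set or injection gave the differences without the block was not tested.

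Against all 10 controls together, which both injections share, neither group had a called member (0 of 53, background 0% in each; limma). For mRNA, 8 members had an unadjusted p under 0.05 (background 20.4%), and for the labelled morpholino 2 did (background 8.89%). The smallest adjusted p for mRNA belonged to itga5.L probe set A (1.07 ± 0.25, adjusted p = 0.0751), cldn7.L probe set A (-0.53 ± 0.19, 0.144) and fbn3.L probe set A (0.74 ± 0.30, 0.178). The mean of itga5.L probe set A over the 10 controls was 3.94, under the filter's level. On the other probe sets, itga5.L B differed by 0.70 ± 0.32 (0.226) and fbn3.L B by 0.26 ± 0.26 (0.579). For cldn7.L, B differed by -0.33 ± 0.19 (0.323) and C by 0.11 ± 0.14 (0.694). Without control 1, control 4 or mRNA 3, itga5.L probe set A was called (adjusted p = 0.0222, 0.0318 and 0.0448), whereas with set as a block its difference was 0.66 (adjusted p = 0.566). That of cldn7.L probe set A was -0.20 with the block (adjusted p = 0.875). For the labelled morpholino the smallest belonged to itgb1.L probe set A (0.34 ± 0.14, 0.535), itga5.L probe set A (-0.53 ± 0.25, 0.552) and cdh2.S (-1.03 ± 0.52, 0.572). With set as a block these became 0.10, -0.12 and 0.01. A pool of all controls holds both sets: cdh2.S averaged 5.97 ± 1.16 over the 10 controls (SD), with controls 6 to 10 at 4.17 to 5.65 and controls 1 to 5 at 6.61 to 7.16.

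Xenopus laevis carries homeologous copies of many genes, named .L and .S after the long and short chromosomes. Of 11 member genes with both copies on the array, 7 had both kept: cdh2, cdh3, cldn6.1, cldn6.2, col18a1, epcam and itgb1. Both copies of cdh2 had the same sign in each of the next comparisons, and 1 of them passed the test in the first. In controls 6 to 10 minus controls 1 to 5, cdh2.S differed by -2.07 ± 0.24 and cdh2.L by -0.85 ± 0.30 (adjusted p = 0.0631, not called), and in morpholino 1 to 4 minus controls 6 to 9, cdh2.S differed by 0.42 ± 0.29 (adjusted p = 0.618) and cdh2.L by 1.27 ± 0.26. Neither copy differed beyond its error between mRNA arrays and controls 1 to 5 (cdh2.L -0.01 ± 0.17, cdh2.S -0.08 ± 0.36). The difference between the copies was not tested.

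The col18a1 copies had the same sign in each of these comparisons. In controls 6 to 10 minus controls 1 to 5 they differed by -0.47 ± 0.17 (.L, adjusted p = 0.0617) and -1.30 ± 0.29 (.S), and in mRNA minus controls 1 to 5 by -0.27 ± 0.14 and -0.28 ± 0.21. The cldn6.1 copies differed by 0.40 ± 0.14 (.L, adjusted p = 0.0605) and 0.56 ± 0.13 (.S) between the controls of the 2 sets. The C-cadherin copies moved little in any of them: cdh3.L ranged over 11.36 to 12.12 and cdh3.S over 8.30 to 9.15 across all 20 arrays. The epcam and cldn6.2 copies were not called in any comparison.

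**Figure D5:**
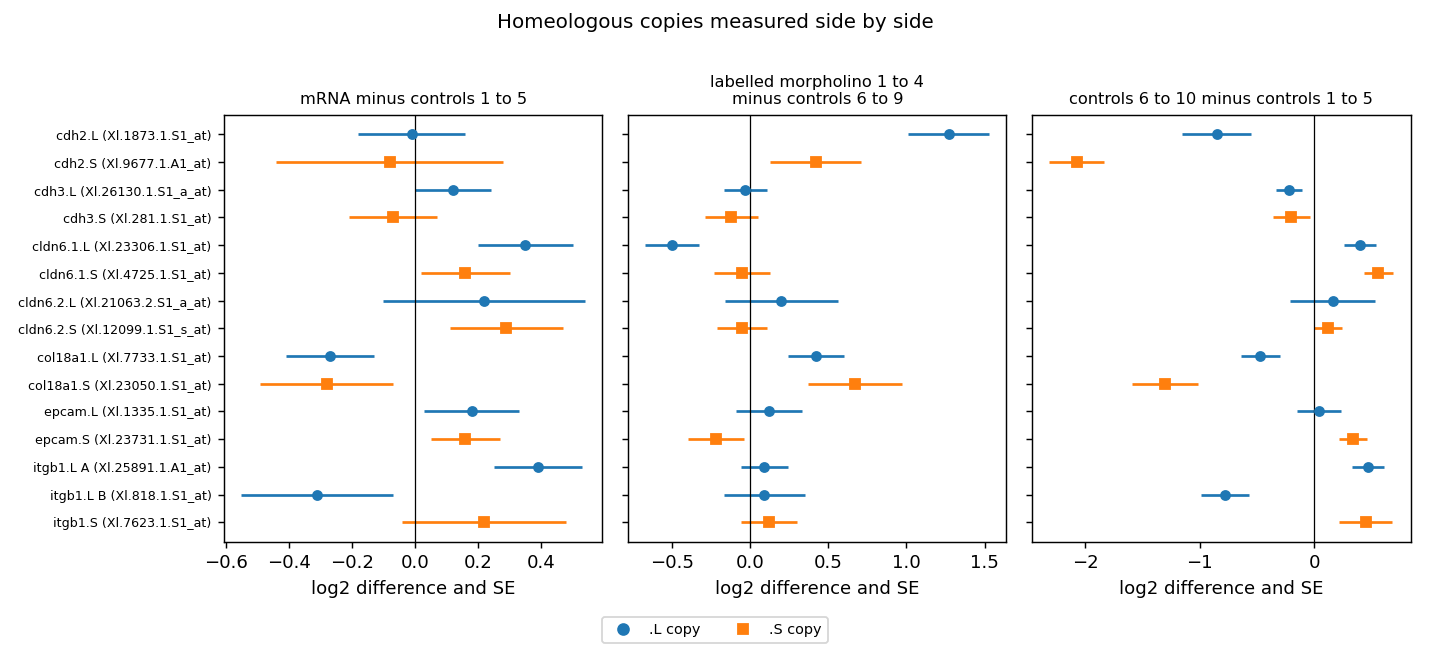
Log2 difference and SE for the .L (circles) and .S (squares) copies of the 7 genes with both copies kept, in mRNA minus controls 1 to 5 (n = 5 each), morpholino 1 to 4 minus controls 6 to 9 (n = 4 each) and controls 6 to 10 minus controls 1 to 5 (n = 5 each). In the middle panel cdh2.L stands at 1.27 and cdh2.S at 0.42, while in the right panel cdh2.S stands at -2.07 and cdh2.L at -0.85; the panels have different ranges.

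Several genes had more than 1 probe set, and these did not always move together. The 2 probe sets of itgb1.L, the shared beta subunit of many integrins, were both called between the controls of the 2 sets and in opposite directions: probe set A was at 10.74 ± 0.16 in controls 6 to 10 and 10.27 ± 0.19 in controls 1 to 5 (0.47 ± 0.14, adjusted p = 0.0289), whereas probe set B was at 3.98 ± 0.38 and 4.76 ± 0.32 (-0.78 ± 0.21, adjusted p = 0.022). Probe set B passed the filter mainly through the first set. All of controls 1 to 5 were above 4 on it, but of controls 6 to 10 only control 7 (4.65). Its call is therefore not separate from the filter, and the direction of itgb1.L between the sets is not settled by these data. The fbn3.L probe sets differed there by -0.38 ± 0.30 and 0.63 ± 0.29, neither called. Of the 26 gene symbols with several probe sets, 4 had both kept and low ones. For cdh2.L the 2 others never exceeded 2.13.

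Genes that work with the members were counted in the same comparisons. The lists were adherens junction and catenins (9 kept of 11 probe sets), desmosome (11 of 12), integrin adaptors (13 of 15), other matrix proteins (13 of 26), collagen processing (10 of 17), proteases and inhibitors (6 of 16), heparan sulphate proteoglycans (9 of 12), neural adhesion (1 of 7) and cxcr4 as a partner in migration (2 of 3). None of their probe sets was called in mRNA minus controls 1 to 5, in labelled morpholino minus controls 6 to 10 or against all controls (limma, 0 of all 10435 in each). In mRNA minus controls 1 to 5 the smallest p of the collagen processing list was that of the lysyl hydroxylase plod1.S (1.06 ± 0.26, adjusted p = 0.635), and of the other matrix list that of the hyaluronan synthase has2.S (0.69 ± 0.26, 0.635).

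In controls 6 to 10 minus controls 1 to 5, collagen processing had 5 of 10 lower and 0 higher, with a median difference of -0.586 against 0.0833 over all probe sets. Over all probe sets 14.7% were called higher and 8.43% lower in this comparison, and with lists this short several of the counts below are near those shares. The prolyl hydroxylase p3h1.L differed by -0.73 ± 0.12 (adjusted p = 0.00225) and p4hb.L by -0.76 ± 0.18 (0.0132). Other matrix proteins had 5 lower and 1 higher of 13 (median -0.238): emilin2.L differed by -1.42 ± 0.26 (0.00314) and emilin1.L by 0.98 ± 0.20 (0.00568). Each has a mean near or under the filter's level, emilin2.L at 4.12 in controls 6 to 10 and emilin1.L at 3.29 in controls 1 to 5. The desmosome list had 3 of 11 higher and 0 lower (median 0.382), led by the plakins evpl.L (1.11 ± 0.16, adjusted p = 0.000784) and ppl.L (2.28 ± 0.38, 0.00196), which link junctions to keratin.

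The integrin-linked kinase ilk.S differed by -1.08 ± 0.20 (adjusted p = 0.00355) and its partner lims1.L by 0.76 ± 0.19 (0.0139), with 2 higher and 1 lower of 13 integrin adaptors. Near the filter's level were ilk.S in controls 6 to 10 (4.01) and lims1.L in controls 1 to 5 (4.15). The neural adhesion molecule ncam1.S, the 1 kept probe set of its list, differed by -1.57 ± 0.19 (adjusted p = 0.000315), at 4.39 in controls 6 to 10 and 5.97 in controls 1 to 5. Proteases and inhibitors had 1 higher and 1 lower of 6, heparan sulphate proteoglycans 1 higher of 9, and catenins and cxcr4 none (medians -0.189, -0.0568, -0.104 and -0.317). In mRNA minus labelled morpholino, 3 of 10 collagen processing probe sets were higher (median 0.583 against -0.0521 over all), 2 of 13 other matrix probe sets were higher, and 3 of 11 desmosome probe sets were lower and 1 higher. Single calls each way came from the integrin adaptors (ptk2.L, 1.00 ± 0.28, and lims1.L, -0.87 ± 0.25), 1 lower from the proteases (adam33.L, -0.81 ± 0.25) and 1 higher from the catenins (ctnna1.S, 0.48 ± 0.15). The mRNA means of lims1.L (3.95) and adam33.L (3.99) lay under the filter's level. Over all probe sets 4.82% were called higher and 8.49% lower in mRNA minus labelled morpholino. With set as a block 0 of 10435 probe sets were called (limma), so all of these list calls were lost.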

How the data were processed

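Values of 20 arrays were analysed as the authors deposited them, on the log2 scale; the submitters' processing notes name GCRMA, and no source used here gives its version or which arrays were processed together. Of 15611 probe sets, 120 controls were left out, and 10435 of the rest were above log2 4 in at least 5 arrays. Symbols came from the platform annotation (9304 probe sets with 1 symbol, 195 with several, 5992 with none), and 111 of 115 members matched a RefSeq gene table. Groups were compared with limma 3.58.1 in R 4.3.3 (lmFit, eBayes, Benjamini-Hochberg over all kept probe sets, threshold 0.05), which was tested on simulated data; ± is the SD for levels and the SE for differences. Comparisons against all controls and between injections used 3 group means over 20 arrays, the others only their own arrays. The alternatives were other filters, quantile and median scaling, array weights, blocks and arrays left out. Members, lists and tests were chosen with earlier results of these data known. Named were members called (10 a direction) or else the 3 with the smallest adjusted p (ties by unadjusted p), the largest SD in each class, homeolog pairs and members that separated by tracer, with single other members added for contrast after their values were seen. After removal of group means, mRNA arrays correlated with the control of their number at 0.226 to 0.634 (5 of 5 over 0.1, 4 of 5 most with the control sharing it), which met the rule for pairs. The number of arrays limits precision.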

Additional observations from a re-analysis of the deposited data

Results flagged for a closer look

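By Dixon's test in groups of 5 or 10 arrays, 12 of 159 tests (7.55%) found an array set apart from its label group. Chance flags about 1 in 20 groups. The share of flags over all kept probe sets is not given here, so the count does not show an excess among the members. Several flags fell on the same array, and no cause was tested. Morpholino 2 gave 3 of them: pcdh8.2.L was low at log2 9.19 (next 10.79), gjb2.L low at 11.84 (next 12.12) and mmp14.L high at 7.33 (next 5.82). Morpholino 5, the array labelled morpholino that carries the tracer, was low for fbn3.L probe set A at 8.49 (next 10.14) and for cdh2.S at 3.55 (next 5.09).

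The probe set fbn3.L probe set B stood apart in morpholino 4, high at 6.48. Among mRNA arrays, pcdh8.2.L was low at 10.16 in mRNA 3 and col18a1.S high at 7.41 in mRNA 1. Over the 10 controls, control 9 was low for fn1.S probe set C at 11.41 and for cdh1.S at 6.68, control 3 high for itgb1bp2.L at 6.67 and control 4 low for itgb1.S at 10.26.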

How the results depend on the processing

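Counts of called members are given here, without the share over all probe sets under each alternative. With no filter, the members left out as low were tested too. A changed count therefore does not set the members apart from other probe sets. The count stayed at 0 in mRNA minus controls 1 to 5 under every alternative run, including the replicate block (pairing by number, 0), and at 0 when any array was left out. In labelled morpholino minus controls 6 to 10 it became 1 without morpholino 5 and control 10 and was 0 otherwise. Against all controls, mRNA had 2 with array weights and 0 to 1 when an array was left out. Labelled morpholino had 8 with the replicate block, in which controls 6 to 10 have no partner, and 0 when an array was left out. Without the 8 arrays whose tracer goes against their label, or without morpholino 1 to 4, morpholino 5 was the only array of its label. Counts from these fits are therefore not given. Between mRNA and labelled morpholino the 5 calls became 11 with no filter, 3 with the filter at log2 6 and 9 with array weights. They became 10 with the replicate block and 0 with set as a block. That count was 1 to 7 when an array was left out. It was 1 without mRNA 2, mRNA 5, morpholino 3, morpholino 4 or morpholino 5, and 2 without mRNA 3, mRNA 4 or morpholino 1. It was 3 without mRNA 1 and 7 without morpholino 2. Between the controls the 12 calls became 28 with no filter and 8 to 15 when an array was left out (8 without control 6). Without the 4 controls that carry the tracer, control 10 was the only control of its set, as described above. The 8 members separated by tracer were 8 with the second tracer probe set. With set as a block cdh2.S turned to 0.01 (labelled morpholino minus all controls) and -0.09 (mRNA minus labelled morpholino). The replicate block changed no other count; controls 6 to 10 share no number with other groups, so no paired analysis was possible there. Labelled morpholino arrays correlated with controls 1 to 5 of their number at 0.0593 to 0.281 (4 of 5 over 0.1), which does not make them pairs. Like the mRNA arrays, 4 of 5 correlated most with the control sharing their number, so that count alone does not show pairing. The cause of these changes was not tested, apart from the fewer arrays or probe sets that an alternative leaves. Signals near log2 4 limit itga5.L, pcdh7.L and the low itgb1.L probe set, and in the related lists emilin1.L, emilin2.L, ilk.S, lims1.L and adam33.L. Probe set A of itga5.L, pcdh7.L and the low itgb1.L probe set passed the filter mainly through the set where they were high.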

Other observations

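Some members left out as low, picked after their values were seen, were highest in morpholino 2. Collagen col8a1.S was at 6.01 in that array and at 2.78 to 3.88 in the other arrays labelled morpholino, against 2.53 to 2.91 in controls 6 to 10. The integrin itga4.S was at 3.42 there, mmp28.L at 3.79 and a col2a1.S probe set at 5.04, although the last was also above 4 in 3 other arrays (4.87 in mRNA 5). The kept collagen probe sets with several symbols, which name col2a1.S and col2a1.L, were highest in the same array, at 7.83 and 7.85. They were lowest in morpholino 5, at 3.82 and 4.12.

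Of the 62 members left out as low, 4 had all 10 arrays of the second set on one side of all 10 of the first (6.45%, background 12.8% of the 5056 probe sets left out). Integrin itga11.S and collagen col4a2.L were above in the second set, and col1a2.L and col1a1.S were below. At these values, col1a1.S ran over 2.35 to 2.53 in the second set and 2.98 to 3.20 in the first set.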
